A study of Arabidopsis thaliana with 8 samples.

Results

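The effect of rGRF3 was taken as 1 difference over the whole experiment: the 4 arrays of plants carrying rGRF3 against the 4 arrays of plants without it, which are all 8 arrays of the series. The plants with the transgene were the rGRF3 line and the rGRF3x35S:GIF1 line, called the double line here. The plants without it were Col-0, the wild-type accession, and the 35S:GIF1 line. There were 2 arrays per genotype, one with the letter A and one with B, and RNA came from dissected vegetative shoot apices with their leaf primordia. All plants were 20 days old and had been grown on soil in 8 h of light and 16 h of dark at 23 °C. The labels describe the transgenic lines as overexpressors of GRF3, of GIF1 or of both, and in published work rGRF3 is a GRF3 version that the microRNA miR396 does not cleave. The 35S promoter drives expression in most tissues. How many independent transformants or plants stand behind a line is not given in the sources used here, so the p-values cover the scatter among these arrays and no more, and that scatter may be technical.

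Growth-regulating factors (GRFs) are plant transcription factors that promote cell proliferation in young leaves. The microRNA miR396 cleaves most GRF transcripts and so restricts them to the youngest, dividing part of the organ. GRFs act together with GRF-interacting factors (GIFs), co-activators that do not bind DNA themselves, and GIF1 is also known as ANGUSTIFOLIA3.

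The arrays cover 22810 probe sets, and the 14005 with a log2 signal of at least 4 on at least 2 arrays were tested, 64 control probe sets being left out. Array medians lay between 5.9 and 5.97, and 60.3% to 60.7% of probe sets reached a log2 signal of 4 on each array. Of the tested probe sets 7599 have exactly 1 gene in the annotation used. None of the GRF and GIF genes is among them (0 named probe sets), so the transgenes' own transcripts could not be checked against the labels. The letter was the larger source of spread: the median absolute log2 difference was 0.21 between letters, 0.13 for rGRF3 and 0.08 for 35S:GIF1. In the same fit 3921 probe sets (28.0%) passed for the letter and 2 (0.0143%) for 35S:GIF1. Of 46 cell type markers, 6 have a named probe set. The leaf primordium gene YAB3 had a median log2 signal of 8.73 with rGRF3 and 8.72 without it, and the shoot meristem gene CLV3 was at the floor of 2.12 on every array. No vascular, floral or root marker was named, so the share of those cells could not be followed. The BioB, BioC, BioD and Cre control transcripts, from bacteria and a phage, also differed between the arms. All 18 of their probe sets were higher with rGRF3 in at least 3 of the 4 pairs of arrays, and 8 in all 4. Their mean log2 differences ran between 0.07 and 0.29, with a median of 0.14. By pair the median was 0.26 and 0.09 in the Col-0 background and 0.23 and 0.04 in the 35S:GIF1 background (letters A and B), and the part of this shift in the results was not tested. The other bacterial controls (dap, lys, phe, thr and trpn) are not in these counts and did not share the direction. Among them AFFX-DapX-3_at was higher in all 4 pairs, and AFFX-LysX-3_at and AFFX-PheX-M_at were lower in all 4.

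With rGRF3, 11 probe sets passed (0.0785% of those tested): 10 rose (0.0714%) and 1 fell (0.00714%) in limma's fit with the letter and 35S:GIF1 as terms, at a Benjamini-Hochberg adjusted p under 0.05. Of these 11, 6 have 1 gene: AT3G53980, AT1G72060, JAL22, AT1G62290 and AT3G51450 rose and AT5G62210 fell. The other 5 have no single listed gene and are given by their probe set identifiers. In all 11 the difference had the same sign in each of the 4 pairs of arrays that share letter and 35S:GIF1 status. Over all tested probe sets 12.3% had all 4 pairs higher and 14.6% all 4 lower. For 5 of the 11 the 4 arrays with rGRF3 did not overlap the 4 without it. Over all tested probe sets 2.17% lay wholly above and 3.18% wholly below. The 11 were picked by the same difference on the same arrays, which favours both traits, so neither is separate support. The calls depended on the letter term, and without it 1 probe set (0.00714%), 263914_at, passed. Leaving out the Col-0 A, the rGRF3 A or the double-line B array left 0. Without the 35S:GIF1 A or the rGRF3 B array 1 passed, in each case not one of the 11.

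The 263914_at probe set passed in 11 of 22 alternative settings, the highest number of the 11. Its log2 signal was 9.70 and 9.85 in rGRF3 and 9.60 and 9.66 in the double line, whereas Col-0 had 7.90 and 7.60 and 35S:GIF1 7.66 and 8.10 (letters A and B). The 4 arrays with rGRF3 thus lay close together and at least a full log2 unit above every array without it. The fitted log2 difference was 1.89 ± 0.13 (SE, n = 4 against 4), a 3.70-fold higher signal with an adjusted p of 0.0129 by limma. No gene is assigned to this probe set in the annotation used, so whether it reads a transgene was not tested.

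**Figure D1:**
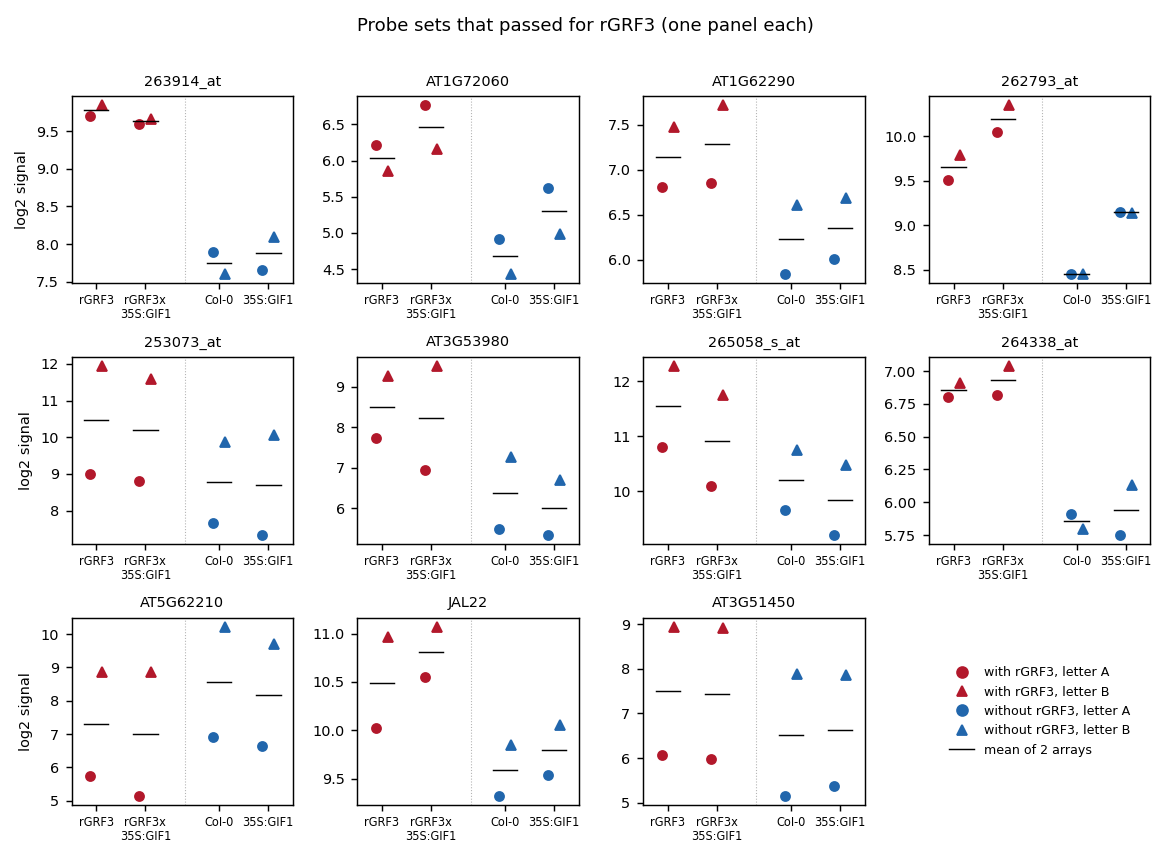
Log2 signal (vertical axis, a scale of its own in each panel) of the 11 probe sets that passed, by genotype; circles are letter A, triangles letter B, red points carry rGRF3, blue points do not, and lines are means of 2 arrays. In 263914_at, AT1G72060, AT1G62290, 262793_at and 264338_at all red points lie apart from all blue points, and in the other 6 panels the letters differ so much that the groups overlap although each pair of arrays moves the same way.

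AT3G53980 had the largest difference among the genes that passed. Its log2 signal was 7.73 and 9.28 in rGRF3 and 6.95 and 9.52 in the double line, whereas Col-0 had 5.50 and 7.27 and 35S:GIF1 5.34 and 6.69. The lowest array with rGRF3 was below the highest Col-0 array, because letter B ran higher in every genotype, but within each letter the groups were apart. The log2 difference was 2.17 ± 0.19 (SE), or 4.50-fold, with an adjusted p of 0.0191 by limma, and it was 2.12 in the Col-0 background and 2.22 in the 35S:GIF1 background. The gene tables used here give no symbol for this locus, and the same holds for the other genes named by locus below.

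AT1G72060 rose in both backgrounds without overlap. The values were 6.21 and 5.86 in rGRF3 and 6.77 and 6.16 in the double line, whereas Col-0 had 4.92 and 4.43 and 35S:GIF1 5.62 and 4.98. Its log2 difference was 1.26 ± 0.09 (SE), 2.40-fold, with an adjusted p of 0.0129 by limma. AT1G62290 likewise showed separate groups, at 6.81 and 7.47 in rGRF3 and 6.85 and 7.72 in the double line, whereas Col-0 had 5.84 and 6.61 and 35S:GIF1 6.01 and 6.69. The 4 pairs gave between 0.84 and 1.03, a narrow range, for a fitted log2 difference of 0.93 ± 0.07 (SE, adjusted p = 0.0167 by limma).

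AT3G51450 was dominated by the letter. It had 6.06 and 8.94 in rGRF3 and 5.97 and 8.91 in the double line, whereas Col-0 had 5.15 and 7.89 and 35S:GIF1 5.38 and 7.87. The B arrays were 2.77 log2 units above the A arrays, and the rGRF3 difference of 0.90 ± 0.10 (SE, adjusted p = 0.048 by limma) is visible only within a letter. This gene was the last inside the threshold, next to JAL22 at 0.0314. Just outside it were 267264_at (log2 difference 0.67, adjusted p = 0.0623), AT1G20390 (-0.83, 0.0853) and JAL23 (1.70, 0.0856).

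The single probe set that fell was AT5G62210. It had 5.75 and 8.85 in rGRF3 and 5.14 and 8.87 in the double line, whereas Col-0 had 6.90 and 10.22 and 35S:GIF1 6.64 and 9.69. Letter B was 3.30 log2 units above letter A, and within each letter both lines with rGRF3 were below both genotypes without it. The log2 difference was -1.21 ± 0.12 (SE), a 2.32-fold lower signal with an adjusted p of 0.0314 by limma.

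The other 4 unassigned probe sets that rose had log2 differences between 0.99 and 1.60. 262793_at had 9.51 and 9.79 in rGRF3 and 10.04 and 10.35 in the double line, whereas Col-0 had 8.45 and 8.45 and 35S:GIF1 9.15 and 9.14. Its groups did not overlap, nor did those of 264338_at, at 6.80 and 6.91 in rGRF3 and 6.82 and 7.04 in the double line, whereas Col-0 had 5.91 and 5.80 and 35S:GIF1 5.75 and 6.13. The log2 differences were 1.12 ± 0.09 and 0.99 ± 0.10 (SE, adjusted p = 0.0167 and 0.0281 by limma). For 253073_at (1.60) and 265058_s_at (1.21) the groups overlapped across letters, as the plot of the 11 probe sets shows.

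The rGRF3 difference of each probe set that passed had the same sign with and without 35S:GIF1, which picking them on the same arrays favours. Over all 14005 tested probe sets the differences in both backgrounds, which share no arrays, correlated at 0.49 across probe sets and 66.7% had the same sign. Probe sets are not independent replicates, and both differences share the letters. The interaction, which tests whether the rGRF3 difference depends on 35S:GIF1, had 0 probe sets (0.0%) past the threshold in limma's fit, with 480 (3.43%) at an unadjusted p under 0.05 and a lowest adjusted p of 0.998. The lowest interaction p-values among single-gene probe sets belonged to AT5G04670 (log2 difference -0.90 in the Col-0 background, 0.40 in the 35S:GIF1 background), AFR (-1.20 and 0.02), AT1G64610 (-0.13 and 1.01), AT1G27200 (-0.38 and 0.70) and AT5G28630 (1.89 and 0.02). AFR is an F-box protein of far-red light signalling. AT5G28630 lies next to GIF1 in the gene table of assembly TAIR10.1. It had 6.70 and 5.34 in rGRF3 and 6.28 and 5.54 in the double line, whereas Col-0 had 4.53 and 3.73 and 35S:GIF1 6.75 and 5.03, so Col-0 alone was low.

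**Figure D2:**
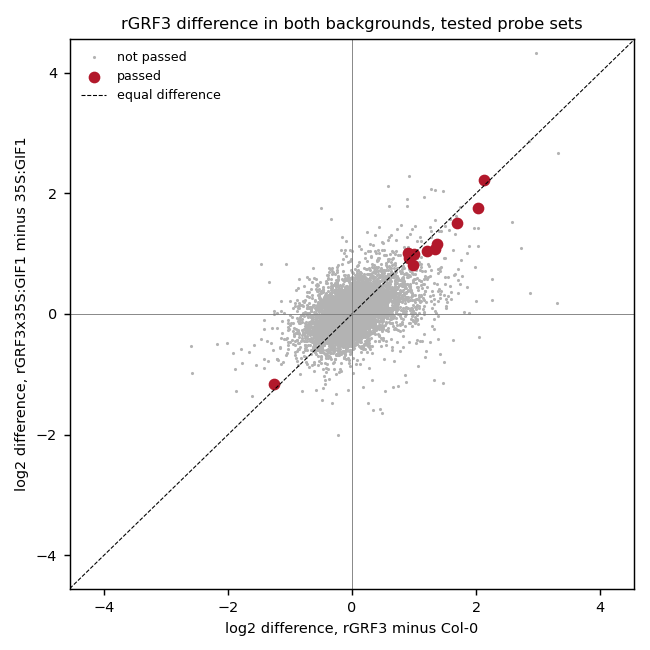
Log2 difference of every tested probe set in the Col-0 background (horizontal, rGRF3 minus Col-0) and in the 35S:GIF1 background (vertical, rGRF3x35S:GIF1 minus 35S:GIF1), each the mean over both letters; red points are the 11 that passed and the dashed line marks equal differences. The red points lie along the dashed line, from 0.81 to 2.22 on the vertical axis for those that rose and at -1.16 for AT5G62210.

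JAL22, a jacalin-related lectin, passed, and 6 other genes of ER bodies and the PYK10 complex had differences in the same direction. ER bodies are compartments derived from the endoplasmic reticulum in Arabidopsis and its relatives; they store beta-glucosidases, of which PYK10 is the most abundant in seedlings, and jacalin-related lectins assemble with PYK10 when cells are broken. This group was put together after the values of JAL22 and JAL23 had been seen. Of its 18 loci 7 have a named and tested probe set. All 7 were above 0 with all 4 pairs higher (12.3% of tested probe sets had all 4 higher), and 1 passed over all probe sets. The median log2 difference was 0.68 against -0.01 over all tested probe sets. JAL22 and JAL23, whose values prompted the group, are counted in these figures, and JAL22 is the 1 that passed. The figures are therefore no test of the group. Its remaining members had log2 differences from 0.33 (NAI2) to 0.84 (JAL33) and did not pass. The medians of the group in the 4 pairs were 0.62 and 1.11 in the Col-0 background and 0.36 and 0.69 in the 35S:GIF1 background (letters A and B).

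JAL22 had 10.02 and 10.96 in rGRF3 and 10.55 and 11.07 in the double line, whereas Col-0 had 9.32 and 9.85 and 35S:GIF1 9.54 and 10.05. Only the highest array without rGRF3 exceeded the lowest with it, and the log2 difference was 0.96 ± 0.10 (SE, adjusted p = 0.0314 by limma). JAL23 had 7.47 and 10.06 in rGRF3 and 6.45 and 9.42 in the double line, whereas Col-0 had 6.28 and 8.56 and 35S:GIF1 4.21 and 7.56 (1.70 ± 0.21 SE, adjusted p = 0.0856). JAL22 and JAL23 lie with 1 gene between them, and JAL33 and JAL34 are neighbours. Whether probes of such related genes share signal was not tested.

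JAL33 had 9.92 and 10.38 in rGRF3 and 10.50 and 10.04 in the double line, whereas Col-0 had 9.38 and 9.02 and 35S:GIF1 9.72 and 9.35, without overlap (0.84, adjusted p = 0.14). JAL34 had a log2 difference of 0.68 (adjusted p = 0.145). PYK10 had 12.32 and 12.74 in rGRF3 and 12.57 and 12.70 in the double line, whereas Col-0 had 11.65 and 12.20 and 35S:GIF1 12.31 and 12.39 (0.45, adjusted p = 0.171). NAI1, the bHLH transcription factor required for ER bodies, had a difference of 0.64 (adjusted p = 0.20), and NAI2, a protein needed to form them, had 0.33 (adjusted p = 0.197). In a bulk sample a larger number of cells with such bodies and more transcript per cell cannot be told apart.

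**Figure D3:**
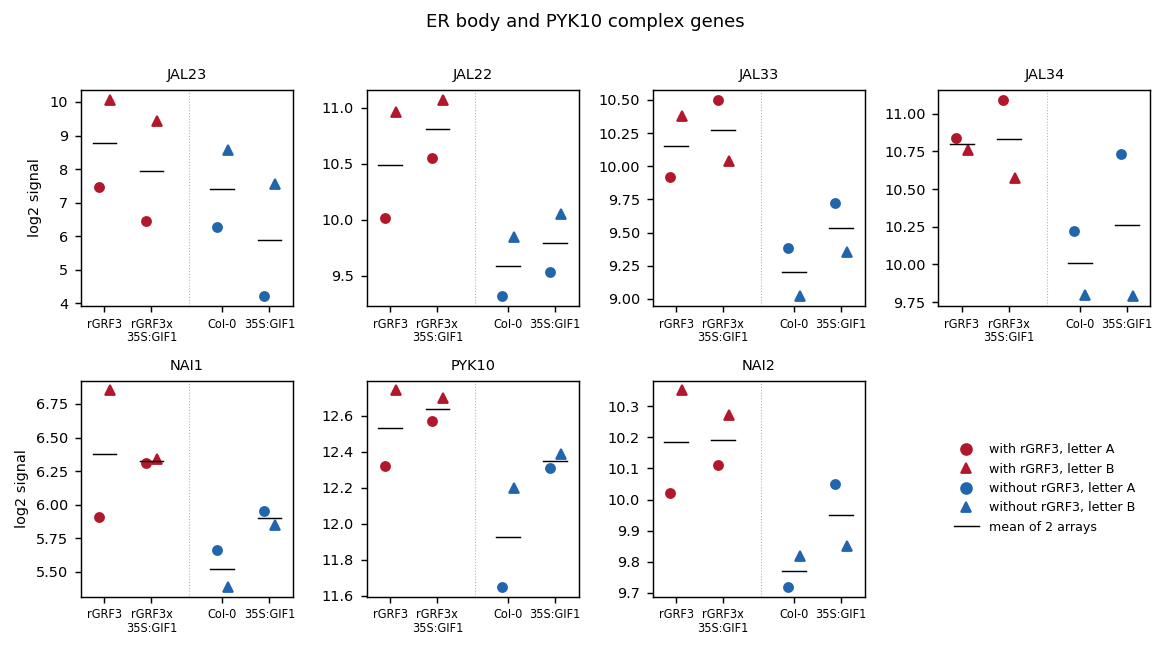
Log2 signal (vertical axis, own scale in each panel) of the 7 ER body and PYK10 complex genes by genotype; circles are letter A, triangles letter B, red points carry rGRF3 and lines are means of 2 arrays. Each red point is above the blue point of its own letter and background, and JAL33 is the panel without overlap.

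Several other genes had differences of similar size and did not pass. Those with the lowest p-values after JAL23 were MYBC1, a MYB-family transcription factor (0.84, groups apart), AT1G17860 (0.69), the subtilisin-like protease gene ATSBT5.2 (1.13) and AT1G22160 (0.74, groups apart), each at an adjusted p of 0.0856. ATSBT5.2 had 5.30 and 6.54 in rGRF3 and 6.01 and 7.16 in the double line, whereas Col-0 had 4.45 and 5.81 and 35S:GIF1 4.55 and 5.67. On the lower side the 9 next genes were taken by lowest p among those with all 4 pairs lower. Their log2 differences lay between -0.97 and -0.52. In 7 of these the 4 arrays with rGRF3 lay wholly below the rest, beside 3.18% of all tested probe sets. The way they were picked favours such a count. The 9 were AT1G20390 (-0.83), AT2G04790 (-0.75), AT5G50915 (-0.92), AT1G51080 (-0.70), AT1G42470 (-0.52), AT1G75670 (-0.59), AT4G12830 (-0.97), AT2G20870 (-0.80) and AT1G13810 (-0.62), with adjusted p-values of 0.0853 to 0.131 by limma. AT1G20390 is annotated as a pseudogene, and AT2G04790 was below or near the filter level of 4 on all arrays. AT2G04790 reached that level only on the Col-0 A (4.33) and 35S:GIF1 A (4.0) arrays, both without rGRF3. It was tested only because of these arrays. With rGRF3 its signals lay between 2.39 and 3.35, so its difference is one between signals near background. The lowest p-values among unassigned probe sets on this side were those of 245227_s_at (-0.65), 245346_at (-1.09), 261979_at (-0.98), 262261_at (-0.42) and 267138_s_at (-0.60).

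A further 2 loci were singled out after their values were seen. AT1G43590, annotated as a pseudogene, had 7.91 and 7.41 in rGRF3 and 7.85 and 7.32 in the double line, whereas Col-0 had 5.20 and 4.19 and 35S:GIF1 2.12 and 4.38. The 35S:GIF1 A array was at the floor, and the fitted log2 difference of 3.65 ± 0.56 (SE) did not pass (adjusted p = 0.111). AT1G54020 had 4.96 and 8.40 in rGRF3 and 4.45 and 6.96 in the double line, whereas Col-0 had 3.71 and 5.60 and 35S:GIF1 3.51 and 5.04 (1.73, adjusted p = 0.137). Of all tested probe sets 80 had a log2 difference of 1 or more and 19 of -1 or less, and 7 of those passed.

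Gene families were followed through 49 lists taken mainly by gene symbol, of which 26 had 3 or more tested members. No member of these passed over all probe sets (0 called), so each is given by its counts and its median, to be read beside the median of -0.01 and the shares at an unadjusted p under 0.05 over all tested probe sets, 8.59% higher and 9.54% lower. Over all tested probe sets 47.8% had a difference above 0 and 52.2% below 0.

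Enzymes of specialised metabolism and defence had medians above 0. Among serine carboxypeptidase-like genes 12 of 14 were above 0, with a median of 0.14. The member scpl31 had 6.78 and 7.78 in rGRF3 and 7.43 and 7.71 in the double line, whereas Col-0 had 4.56 and 4.83 and 35S:GIF1 5.36 and 6.72, without overlap (2.06 ± 0.27 SE, adjusted p = 0.0856), and SCPL34 followed at 0.57 (0.148). Of 9 cytochromes P450, all of the CYP71B subfamily, 7 were above 0 (median 0.20), with CYP71B23 at 1.48 (adjusted p = 0.148) and CYP71B37 at 0.89 (0.19). CYP71B23 was below the filter level of 4 on the Col-0 A and 35S:GIF1 A arrays. UDP-glycosyltransferases, which attach sugars to small molecules, had 15 of 19 above 0 and a median of 0.11, with UGT72E1 at 0.75 and UGT85A2 at 0.52. The 5 defensin and pathogenesis-related genes had a median of 0.52: the thionin gene THI2.2 differed by 1.13 (adjusted p = 0.112), and the defensin PDF1.2b by 1.61 (adjusted p = 0.242), with 2.87 in the Col-0 background and 0.34 in the 35S:GIF1 background. PDF1.2b was below the filter level of 4 on 5 of the 8 arrays, among them all 4 of the 35S:GIF1 background, so its difference there is one between signals near background. Glutathione transferases (median 0.08, 7 tested, GSTU20 0.54, GSTU16 0.29), beta-glucosidases (0.10, 8 tested, BGLU33 -0.57, BGLU47 -0.37) and the anthocyanin and flavonoid list (0.01, 6 tested, DFR 0.61, UGT76E11 -0.41) were nearer the overall median.

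A second group chosen after values were seen held cold-regulated genes. For its 11 loci 6 named probe sets were found, and 4 of these were tested. All 4 were above 0, as were 47.8% of all tested probe sets, and their median was 0.63. In 2 of them all 4 pairs were higher, beside 12.3% of all tested probe sets. As the group was chosen by values, these counts are no test of it. COR15A, a chloroplast cryoprotective protein, had 8.19 and 11.16 in rGRF3 and 8.61 and 11.63 in the double line, whereas Col-0 had 6.61 and 10.71 and 35S:GIF1 7.53 and 9.80 (1.24 ± 0.27 SE, adjusted p = 0.147). COR15B differed by 0.73 (adjusted p = 0.136), LTI30 by 0.54 and COR47 by 0.20, the last 2 with 1 of the 4 pairs lower in each. COR15A and COR15B were also higher on the B than on the A array in every genotype.

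Auxin response and conjugation genes had 4 of 6 above 0 (median 0.26). WES1 and GH3.17, which join auxin to amino acids, had differences of 1.09 (adjusted p = 0.147) and 0.60 (0.149), with all 4 pairs higher in each. IAGLU, which joins auxin to glucose, had a difference of -0.40, with -0.928 in the Col-0 background and 0.125 in the 35S:GIF1 background. WES1 had 8.51 and 9.26 in rGRF3 and 9.40 and 9.11 in the double line, whereas Col-0 had 7.78 and 7.16 and 35S:GIF1 8.43 and 8.54. The gibberellin receptors GID1C (0.23) and GID1A (0.15) had 2 pairs higher and 2 not.

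Mitotic, DNA polymerase and histone genes had medians at or below 0. The mitotic kinase, checkpoint and kinesin list had 4 of 8 above 0 and a median of 0.0, with the spindle checkpoint gene BUBR1 at -0.24 and KINESIN-12B at 0.18. The 3 DNA polymerase and primase genes were below 0 (median -0.27, POLD3 -0.35, POLA3 -0.27), 2 of them at an unadjusted p under 0.05. These 2 were POLD3 and POLH (-0.17), and POLH is a translesion polymerase. Of 6 histone genes 5 were below 0 (median -0.14), among them the H2B gene HTB11 at -0.38 (adjusted p = 0.147). The linker histone gene HIS1-3 had a difference of 1.33 (adjusted p = 0.292), with -0.42 and 0.0 in the letter A pairs and 2.97 and 2.76 in the letter B pairs. HIS1-3 was below the filter level of 4 on 6 of the 8 arrays. It reached that level only on the letter B arrays of rGRF3 (5.10) and the double line (4.95), and was tested only because of them. Tubulins had 4 of 7 above 0 (0.01, TUB5 0.22, TUB9 -0.18), and TON1 recruiting motif genes, which act on microtubule arrays, 6 of 10 (0.04, TRM24 -0.39, TRM22 -0.28).

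Wall genes were mixed. Expansins, which loosen the cell wall, had 5 of 11 above 0 (median -0.08), with EXPA8 at 0.82 and EXLA1 at -0.79. The 4 xyloglucan endotransglucosylases were all below 0 (median -0.43), with XTH18 at -0.63 and XTH19 at -0.59. The 35S:GIF1 A array, at 5.76 and 7.71, was far above the other 3 arrays without rGRF3 for both, and without it XTH19 was at 0.13. XTH18 was below the filter level of 4 on 6 of the 8 arrays. The medians of these 4 genes by pair were 0.49 and -0.17 in the Col-0 background and -1.24 and -0.5 in the 35S:GIF1 background (letters A and B). None of the 4 was lower in all 4 pairs. Trichome birefringence-like genes, which acetylate wall polymers, had 12 of 14 above 0 (0.10, TBL38 0.54, TBL36 -0.54). On the cellulose synthesis list all tested members but COB were cellulose synthase-like genes, and no cellulose synthase gene itself was among them. Of these 6 genes 4 were below 0 (-0.03, CSLC6 -0.18, CSLC5 -0.09).

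The 4 tested stomatal regulators were all below 0, as were 52.2% of all tested probe sets, with a median of -0.24. STOMAGEN was at -0.01. In 2 of the 4, FMA and MUTE, all 4 pairs were lower, beside 14.6% of all tested probe sets. FMA, the bHLH factor that ends divisions in the guard cell line, had 5.48 and 5.06 in rGRF3 and 5.09 and 5.09 in the double line, whereas Col-0 had 5.99 and 5.52 and 35S:GIF1 5.60 and 5.66. The groups did not overlap and the 4 pairs ranged only from -0.57 to -0.47, with a log2 difference of -0.52 ± 0.11 (SE) and an adjusted p of 0.147. MUTE, which acts a step earlier, differed by -0.33 (adjusted p = 0.214) at signals near the filter level, and SPCH, which starts the lineage, by -0.16. The trichome gene TRY was at 0.0.

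Among transcription factor lists, WRKY factors had a median of 0.05 (5 tested, WRKY53 0.45, WRKY47 -0.20), bHLH factors 0.12 (5 tested, bHLH121 0.22, bHLH34 -0.18), homeobox factors -0.15 (3 tested, PHV -0.17, HAT3.1 -0.15) and AGAMOUS-like genes -0.10 (6 tested, AGL87 -0.46, AGL24 -0.21). Subtilases had a median of 0.05 over 4 members, with ATSBT5.2 far above SBT3.12 (-0.11).

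**Figure D4:**
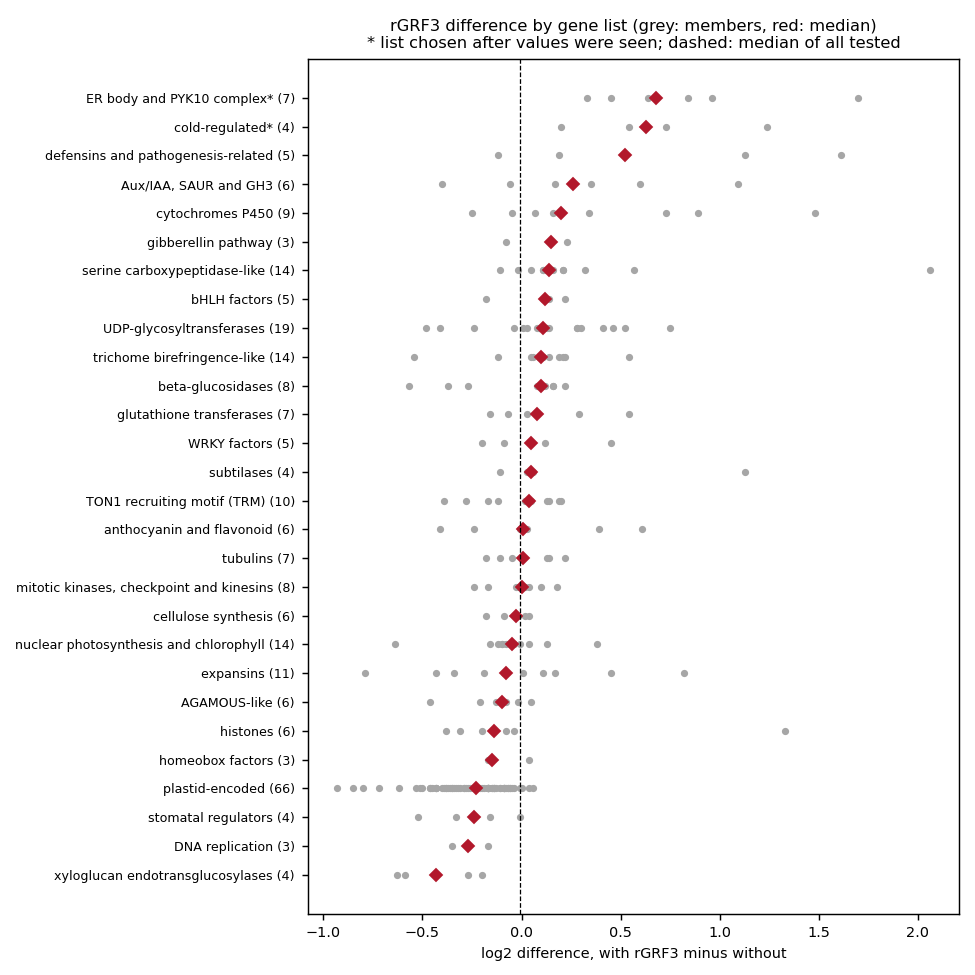
Log2 difference (horizontal axis, with rGRF3 minus without) of the tested members of each gene list with 3 or more, in grey, and the list's median, in red; the number of members is in brackets, an asterisk marks a list chosen after values were seen, and the dashed line is the median of all tested probe sets. Medians run from -0.43 for the xyloglucan endotransglucosylases to 0.68 for the ER body genes.

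Most genes of photosynthesis and of the plastid genome had differences below 0. The 14 nuclear genes of photosynthesis and chlorophyll had a median of -0.05, with 11 below 0, the antenna gene LHCB4.3 at -0.64 (adjusted p = 0.149) and PORB, a chlorophyll synthesis enzyme, at 0.38. Of 66 tested plastid-encoded genes, which include genes of plastid translation and transcription, 63 were below 0, with a median of -0.23, and 19 (28.8%) had an unadjusted p under 0.05, all lower, beside 17.2% to 19.0% in either direction for the genes of each nuclear chromosome. The cytochrome b6f gene petG had 6.21 and 5.37 in rGRF3 and 5.93 and 4.60 in the double line, whereas Col-0 had 6.35 and 6.41 and 35S:GIF1 6.69 and 6.38 (-0.93 ± 0.25 SE, adjusted p = 0.176). The photosystem II gene psbT differed by -0.85 (adjusted p = 0.187). These genes are transcribed from 1 plastid genome and share each array's RNA preparation, so they are not independent of each other.

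The plastid difference was not the same in all pairs of arrays. The median was 0.07 and -0.19 in the Col-0 background and -0.43 and -0.30 in the 35S:GIF1 background (letters A and B), and 25, 56, 65 and 62 of the 66 genes were below 0 in those pairs. The array control for 25S ribosomal RNA also varied, at 8.23 and 6.76 in rGRF3 and 10.90 and 6.34 in the double line, whereas Col-0 had 6.22 and 7.01 and 35S:GIF1 7.88 and 6.66. Its part in the plastid difference was not tested. Fewer plastids or cells and less plastid transcript per cell cannot be told apart here.

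**Figure D5:**
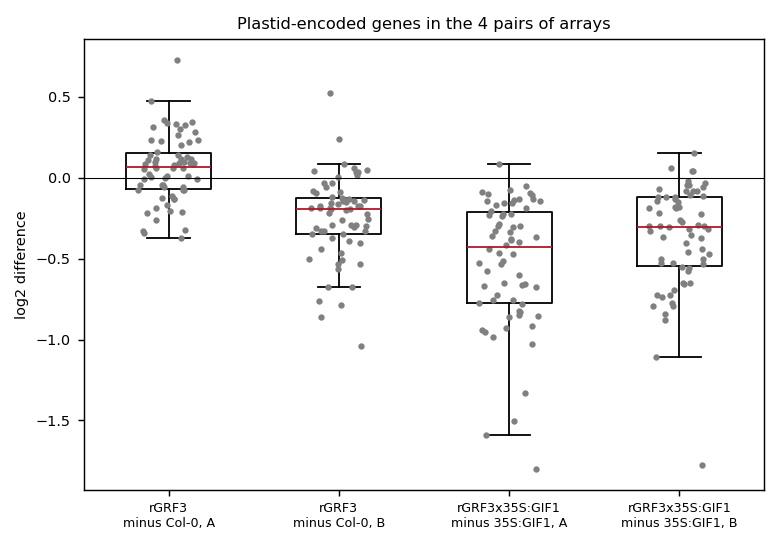
Log2 difference (vertical axis) of the 66 tested plastid-encoded genes in each of the 4 pairs of arrays; points are genes, boxes span the quartiles, red lines are medians and whiskers reach the last point within 1.5 box lengths. The medians are 0.07, -0.19, -0.43 and -0.30, so the first pair, rGRF3 minus Col-0 on letter A, is the one without a lower median.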

How the data were processed

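Total RNA of 8 samples was hybridised to Affymetrix ATH1 arrays, 1 array each. As deposited, the values are log2 signals, by their range of 2.12 to 15.55; GCRMA and limma are named, per the submitters' processing notes, without versions, and for the genome build the sources used here give none. The 2 Col-0 columns carry 9 decimals and the other 6 arrays 3. If Col-0 was processed apart, that enters the rGRF3 difference over all 8 arrays, the interaction and the contrasts within the Col-0 background. Whether it did was not tested.

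The platform annotation lists 1 gene for 13513 probe sets, several for 503 and none for 8730; 13436 matched the TAIR10.1 gene table. Signals were fitted in limma 3.58.1 (R 4.3.3; lmFit, eBayes, no trend, not robust) with terms for rGRF3, 35S:GIF1 and letter on all 8 arrays, adjusted by Benjamini-Hochberg over 14005 probe sets and called at 0.05. The fit had 4 residual degrees of freedom and 7.01 after moderation. The fitting code was tested on simulated data. The labels do not say what the letters mark; A minus B deviations correlated at 0.59 to 0.75 in all 6 pairs of genotypes, and the letter was kept as a block. The number of arrays limits the precision. Tables and plots used matplotlib 3.10.9, numpy 2.4.6, pandas 2.3.3 and Python 3.11.15.

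The comparison and the gene lists were chosen with earlier results of these data known, and 2 lists after values were seen. From the lists taken by symbol, 8 genes whose symbol matched but which belong to another family were removed by identity, also after values were seen. Genes were named by rule: per direction up to 15 called single-gene probe sets with all 4 pairs agreeing in sign, filled to 10 by lowest p; the 5 lowest p among unassigned probe sets; per list of 3 or more tested members up to 4 called ones per direction, otherwise the 2 largest; and the 5 lowest interaction p. Alternatives covered the letter term, the model, the filter, scaling, variance model, array weights and each array left out. A planned promoter motif search was not analysed here.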

Additional observations from a re-analysis of the deposited data

Results flagged for a closer look

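In 7 of 194 groups of 4 arrays 1 array stood far from the other 3, where chance gives about 9.7 (5%, or 1 in 20). With rGRF3, the rGRF3 A array was high for AT4G12830 (4.79) and for FMA (5.48, beside 5.06 to 5.09 on the other 3). Without rGRF3, the 35S:GIF1 A array was high for XTH18 (5.76) and XTH19 (7.71), the Col-0 A array for HIS1-3 (2.79), the Col-0 B array for UGT76E11 (6.95) and the 35S:GIF1 B array for CSLC6 (7.47). None of these genes passed for rGRF3.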

How the results depend on the processing

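All 11 probe sets that passed kept their direction in each of 22 alternatives, with log2 differences of 1.75 to 2.03 for 263914_at, 1.92 to 2.42 for AT3G53980 and -1.33 to -1.10 for AT5G62210, but their calls did not hold throughout: 263914_at passed in 11 of the 22, AT3G51450 in 3. Against 10 higher and 1 lower, the counts were 1 and 0 with no replicate block, 3 and 0 with the replicate block and an interaction term, 6 and 0 with 35S:GIF1 left out, and 29 and 2 with a trended, robust variance. They were 0 and 0 with no filter (2622 at an unadjusted p under 0.05), an ordinary linear model (2058), within letter A (1030) or B (2052), and within the Col-0 (1581) or 35S:GIF1 (1194) background. Leaving out 1 array gave 0 to 10 higher and 0 to 1 lower. In these fits 0 passed without Col-0 A, rGRF3 A or the double-line B array, and 1 without 35S:GIF1 A, 35S:GIF1 B or rGRF3 B. The probe sets that passed without 35S:GIF1 A or without rGRF3 B were not among the 11. Without Col-0 B, 6 of the 10 higher ones were among the 11, and without the double-line A array 7 of 9. The 1 lower call without the double-line A array was not AT5G62210. The within-letter and within-background settings use fewer arrays per contrast; for the others the cause was not tested. The interaction count was 0 in every setting run. Reversed values were all of genes that did not pass. Within letter A these were HIS1-3 -0.21, POLA3 0.08, GID1C -0.07, GID1A -0.07, CSLC5 0.02, SBT3.12 0.19, HAT3.1 0.04 and LTI30 -0.62, and within letter B EXLA1 0.29. Within the Col-0 background they were XTH18 0.33, XTH19 0.48, DFR -0.34, SBT3.12 0.23, AT1G64610 -0.13 and AT1G27200 -0.38. Within the 35S:GIF1 background they were GID1C -0.36, AT5G04670 0.40, AFR 0.02 and IAGLU 0.125. Leaving out 1 array gave XTH19 -1.15 to 0.13 (reversed without 35S:GIF1 A), GID1C -0.07 to 0.43 (reversed without Col-0 B or rGRF3 B), GID1A -0.01 to 0.25 and CSLC5 -0.16 to 0.0 (both reversed without Col-0 B), and SBT3.12 -0.26 to 0.12 (reversed without 35S:GIF1 B or the double-line B array).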

Other observations

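Of the 18 BioB, BioC, BioD and Cre control probe sets, all higher with rGRF3 in at least 3 of 4 pairs, AFFX-BioB-M_at was the one whose groups did not overlap. It had 7.61, 7.38, 7.65 and 7.51 with rGRF3, against 7.33, 7.36, 7.32 and 7.17 without it. Lists with fewer than 3 tested members included the circadian clock (1 tested, 0.63), glucosinolate genes (2 tested, median 0.41), peroxidases (1 tested, PRXR1, 0.27), cytokinin response regulators (1 tested, -0.28) and zinc-finger C2H2 stress factors (1 tested, -0.60).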
